A study of Mus musculus with 6 samples.

Results

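Amacrine cells are the inhibitory interneurons of the inner retina, and 7 transcription factors that specify them or their subtypes are described here, *Pax6*, *Tfap2a*, *Tfap2b*, *Bhlhe22*, *Meis2*, *Barhl2* and *Neurod2*. They were looked up by gene symbol among the genes for which the authors deposited expression values in P14 mouse retina, and 7 of 7 were listed among 11339 genes. Retinas of *Mll1KO* mice were compared with WT retinas to learn which retinal cell types and genes depend on the histone H3 lysine 4 methyltransferase MLL1. *Mll1KO* mice have the genotype MLL1 fl/fl, Chx10-Cre, in which Cre recombinase is made in retinal progenitor cells, so that cells outside that lineage, such as vessels and microglia, keep the gene and some cells within it may not have recombined. WT mice were wild-type animals and not Cre-negative littermates, and both groups are labelled C57Bl6/J and were taken at P14. Each group has 3 libraries, named a, b and c, of 2 pooled retinas each. The effects of the deletion, of Cre itself and of any difference between the 2 mouse lines cannot be told apart in this design.

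Expression is given as RPKM, the reads of a gene scaled to its length and to the total of the library. Read numbers were recovered from the RPKM values, and the library totals were 23836033, 19777205 and 19323512 reads in WT a, b and c. In *Mll1KO* a, b and c they were 23348923, 19855963 and 17961097 reads. Of the 7 factors, *Barhl2* had the fewest reads, 276 in *Mll1KO* b, and *Pax6* the most, 12466 in WT a.

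*Kmt2a* (ENSMUSG00000002028), as the *Mll1* gene is now named, was measured at an RPKM of 36.1, 36.9 and 34.6 in WT a, b and c, and of 22.9, 20.4 and 22.3 in *Mll1KO* a, b and c. Each *Mll1KO* library was below each WT library. The log2 fold change of RPKM + 1, the scale of every log2 fold change given here, was -0.69 with a standard error (SE) of 0.05. Its p, from limma, a linear model fitted to all genes, was 2.77e-05 after adjustment. The *LoxP* sites flank exons 3 and 4, which make up 17.0% of the gene length over which the RPKM was taken, and the rest of the transcript can still be made after recombination. The value therefore does not measure how many cells had recombined.

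Amacrine cells release GABA or glycine onto bipolar, ganglion and other amacrine cells, and single subtypes add acetylcholine, dopamine or peptides. Their identity is set in steps. Progenitors that express *Pax6* give rise to postmitotic precursors in which Ptf1a acts ahead of the AP-2 factors, and further homeodomain and basic helix-loop-helix (bHLH) factors then divide the cells into subtypes. Several of the 7 factors are also used by horizontal, ganglion or bipolar cells, so their level in whole retina is a sum over cell types. RNA from whole retina cannot tell fewer cells of a type from less RNA of a gene per cell.

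In *Mll1KO* retinas 6 of the 7 factors were lower than in WT and 0 were higher at a limma adjusted p under 0.05, with p-values adjusted over all 11339 genes. Over all genes 14.5% were called lower and 8.81% higher (1644 and 999 genes). *Bhlhe22* and *Barhl2* had the largest decreases among the 7, *Pax6*, *Tfap2a*, *Tfap2b* and *Meis2* had smaller ones, and *Neurod2* did not pass the threshold. For the same 6 factors the values of the 3 *Mll1KO* libraries lay below those of the 3 WT libraries, which held for 26.5% of all genes. The summed RPKM of the 7 was 166, 155 and 154 in WT a, b and c and 119, 116 and 133 in *Mll1KO* a, b and c, or 77.5% of WT. Their median log2 fold change was -0.33, beside a median of -0.03 over all genes.

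The split of calls over all genes depends on how libraries are scaled, while that of the 7 factors did so less. With TMM factors 2421 genes were called, 51.9% of them higher, in place of 2643 genes with 37.8% higher, and 6 of the 7 factors were called lower under both. When each library was scaled so that its rod genes summed to the same value, the median of all genes moved to -0.29 and 81.9% of all genes were called lower. The 7 factors were then among them, which is near that share, and relative to that median their log2 fold changes ran from -0.62 for *Bhlhe22* to -0.17 for *Neurod2*.

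**Figure D1:**
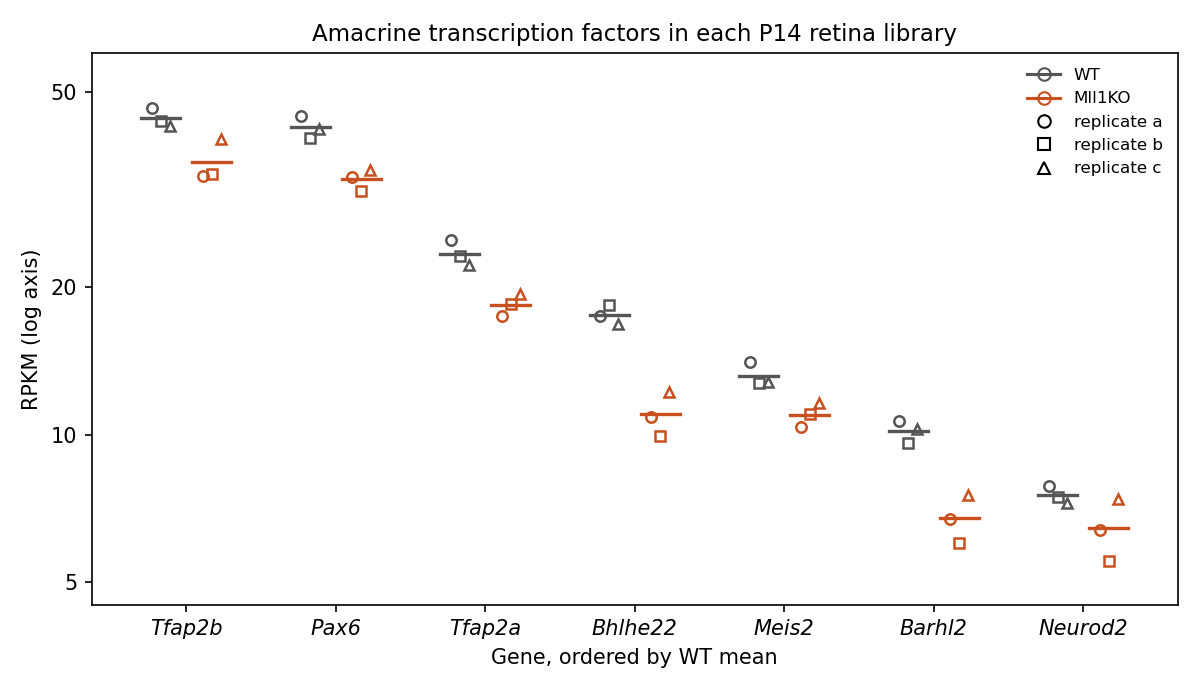
RPKM (log axis) of the 7 amacrine transcription factors, ordered by their WT mean. Open symbols are single libraries, with 3 WT and 3 *Mll1KO* libraries per gene and a shape for each replicate letter, and horizontal lines are group means. WT and *Mll1KO* symbols are separate for every gene except *Neurod2*, where *Mll1KO* c at 7.39 lies between the WT libraries, which span 7.26 to 7.85.

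*Pax6* encodes a paired-box homeodomain protein that starts eye formation, keeps progenitors multipotent and stays on in amacrine, ganglion and horizontal cells. Its RPKM was 44.7, 40.2 and 42.0 in WT a, b and c and 33.5, 31.4 and 34.7 in *Mll1KO* a, b and c. The groups did not overlap, and the gap between the lowest WT and the highest *Mll1KO* library was wider than the spread within either group. The means were 42.3 ± 2.26 (SD, n = 3) and 33.2 ± 1.66 (SD, n = 3), so that *Mll1KO* stood at 78.5% of WT. The log2 fold change was -0.34 (SE 0.05, limma adjusted p = 0.00153). *Pax6* (ENSMUSG00000027168) lies on the plus strand of chromosome 2 from 105668900 to 105697364 in GRCm38. Its exons share no bases with exons of another gene, although the antisense gene *Pax6os1* runs within its span.

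*Tfap2a* and *Tfap2b* encode AP-2α and AP-2β, which act in postmitotic amacrine and horizontal cell precursors. *Tfap2a* was at an RPKM of 24.9, 23.2 and 22.1 in WT a, b and c and at 17.4, 18.4 and 19.3 in *Mll1KO* a, b and c. The *Mll1KO* libraries were all below the lowest WT library, WT c. The mean of *Tfap2a* fell from 23.4 ± 1.38 (SD, n = 3) to 18.4 ± 0.935 (SD, n = 3), 78.7% of WT, with a log2 fold change of -0.33 (SE 0.05, limma adjusted p = 0.0024).

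*Tfap2b* was at 46.4, 43.6 and 42.6 in WT a, b and c and at 33.7, 34.0 and 40.1 in *Mll1KO* a, b and c. *Mll1KO* c stood apart from the other *Mll1KO* libraries and close to WT c, without reaching it. The means were 44.2 ± 1.95 (SD, n = 3) and 35.9 ± 3.58 (SD, n = 3), or 81.4% of WT. The log2 fold change was -0.29 (SE 0.07, limma adjusted p = 0.0109), and -0.37 without *Mll1KO* c. Both AP-2 genes thus fell, and the ratio of *Tfap2a* to *Tfap2b* within a library differed by -0.04 on the log2 scale between the groups, with an SD of 0.02 in WT and 0.08 in *Mll1KO* and with overlapping groups.

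*Tfap2a* (ENSMUSG00000021359) lies on the minus strand of chromosome 13 from 40715302 to 40738376, and *Tfap2b* (ENSMUSG00000025927) on the plus strand of chromosome 1 from 19208914 to 19238576. In this annotation 14.6% of the exon bases of *Tfap2a* also lie in exons of 3 antisense genes, *Gm47061*, *Gm26688* and *Gm47067*. The sources used here name no strand-specific counting, so reads of *Tfap2a* and of these genes cannot be told apart over any such bases that were counted. The length recovered from the RPKM of *Tfap2a* is 3243 bases, against 4903 exon bases in this annotation, so the authors counted over a smaller gene model and the overlap within it is unknown. *Tfap2b* shares no exon bases with another gene.

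*Bhlhe22* encodes a bHLH repressor needed for a part of the GABAergic amacrine cells and for type 2 OFF cone bipolar cells. Its RPKM was 17.5, 18.4 and 16.8 in WT a, b and c and 10.9, 9.94 and 12.2 in *Mll1KO* a, b and c. All *Mll1KO* libraries were well below all WT libraries. The mean fell from 17.6 ± 0.78 (SD, n = 3) to 11.01 ± 1.15 (SD, n = 3), which is 37.3% lower, and the log2 fold change was -0.63 (SE 0.07, limma adjusted p = 0.000246). Of all genes, 0.653% had a log2 fold change as low as that of *Bhlhe22* or lower. *Bhlhe22* (ENSMUSG00000025128) is a gene of 1 exon on the plus strand of chromosome 3 from 18054174 to 18057517, and none of its 50-base stretches occur in transcripts of another gene.

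*Barhl2* encodes a BarH-like homeodomain factor of amacrine subtypes and of ganglion cells. Its RPKM was 10.7, 9.61 and 10.2 in WT a, b and c and 6.72, 6.01 and 7.53 in *Mll1KO* a, b and c. Here too the groups were apart, and *Mll1KO* c was the highest of the lower group. The mean fell from 10.2 ± 0.535 (SD, n = 3) to 6.75 ± 0.763 (SD, n = 3), which is 33.7% lower, with a log2 fold change of -0.53 (SE 0.07, limma adjusted p = 0.000932). *Barhl2* was measured on 276 to 589 reads per library, and limma-voom on the reads, which does not compress low values, gave -0.60. *Barhl2* (ENSMUSG00000034384) lies on the minus strand of chromosome 5 from 106452523 to 106458166.

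*Meis2* encodes a homeodomain factor of the TALE class that marks a part of the GABAergic amacrine cells after its use in progenitors. Its RPKM was 14.04, 12.7 and 12.8 in WT a, b and c and 10.3, 11.003 and 11.6 in *Mll1KO* a, b and c. The groups did not overlap, but the gap between WT b and *Mll1KO* c was smaller than the spread within either group. The mean fell from 13.2 ± 0.746 (SD, n = 3) to 10.975 ± 0.616 (SD, n = 3), 83.25% of WT, with a log2 fold change of -0.24 (SE 0.06, limma adjusted p = 0.0136). *Meis2* (ENSMUSG00000027210) spans 202776 bases on the minus strand of chromosome 2, from 115863064 to 116065839, the same chromosome as *Pax6*.

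*Neurod2* encodes a bHLH activator found in the glycinergic AII amacrine cells, which carry rod signals to the cone pathways, and in some ganglion cells. Its RPKM was 7.85, 7.47 and 7.26 in WT a, b and c and 6.39, 5.53 and 7.39 in *Mll1KO* a, b and c. *Mll1KO* c was above WT c, so the groups overlapped, whereas *Mll1KO* a and b were below all WT libraries. The means were 7.53 ± 0.298 (SD, n = 3) and 6.44 ± 0.93 (SD, n = 3), 85.5% of WT. The log2 fold change of -0.20 (SE 0.08) did not pass the threshold (limma adjusted p = 0.108). Without *Mll1KO* c it was -0.29 and passed (limma adjusted p = 0.0269), without *Mll1KO* b it was -0.11 and did not (adjusted p = 0.299), and over all alternatives the adjusted p ran from 0.000539 to 0.299. The gene (ENSMUSG00000038255) lies on the minus strand of chromosome 11 from 98325415 to 98329648.

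RPKM allows levels of different genes to be set side by side only as far as the gene lengths used match the transcripts made. The recovered lengths were 12043 bases for *Meis2*, 11694 for *Pax6*, 6338 for *Tfap2b* and 3344 for *Bhlhe22*. The order of levels given here therefore depends on the gene models. In WT the order of mean RPKM was *Tfap2b*, *Pax6*, *Tfap2a*, *Bhlhe22*, *Meis2*, *Barhl2* and *Neurod2*. The WT ranges of *Tfap2b* (42.6 to 46.4) and *Pax6* (40.2 to 44.7) overlapped over the libraries, although *Tfap2b* was above *Pax6* within each WT and each *Mll1KO* library, and the ranges of the other neighbours were apart. In *Mll1KO* the order of the means was the same, but the ranges of more neighbours overlapped. *Bhlhe22* (9.94 to 12.2) and *Meis2* (10.3 to 11.6) overlapped, and *Bhlhe22* was above *Meis2* in *Mll1KO* a and c and below it in b. *Barhl2* (6.01 to 7.53) and *Neurod2* (5.53 to 7.39) also overlapped, with *Barhl2* the higher of the pair within each *Mll1KO* library.

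Ratios between 2 of the factors within a library depend on the scaling of libraries only through the added 1, and 21 pairs were compared. *Bhlhe22* against *Neurod2* moved most. Its log2 ratio of RPKM + 1 was 1.06, 1.195 and 1.11 in WT a, b and c and 0.68, 0.74 and 0.66 in *Mll1KO* a, b and c, so that the libraries of the groups were apart. The difference of the means was -0.43 (p = 0.1 by an exact permutation test, two-sided, and 0.175 adjusted over 21 pairs). With 3 libraries against 3 no smaller p can be had. *Bhlhe22* to *Meis2* followed with -0.39, *Tfap2b* to *Bhlhe22* with 0.34 and *Barhl2* to *Neurod2* with -0.33, each at the same smallest p. In each of these pairs the WT ratios lay apart from the *Mll1KO* ratios. *Pax6* to *Tfap2a* moved least, by -0.01 (exact permutation p = 0.9). No pair could pass 0.05 in this exact test, and pairs that hold the same gene are not independent.

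The other amacrine factors moved mostly with the 7. Of 22 on a list of further transcription factors of amacrine cells, 16 were listed, 12 of these were lower, 0 higher and 4 not called, with a median log2 fold change of -0.35. The summed RPKM was 375, 354 and 343 in WT a, b and c and 274, 265 and 287 in *Mll1KO* a, b and c. *Ptf1a*, *Foxn4*, *Neurod6*, *Ebf2* and *Fezf1* were among those not listed.

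*Six3*, an eye-field homeodomain gene kept in many amacrine cells, had the lowest log2 fold change of that list. Its RPKM was 38.4, 35.9 and 36.4 in WT a, b and c and 20.03, 19.0 and 21.2 in *Mll1KO* a, b and c. The groups lay far apart, and the log2 fold change was -0.85 (SE 0.05, limma adjusted p = 8.14e-06). *Zfhx3*, a zinc-finger homeodomain gene, fell by 0.64 (limma adjusted p = 0.00024), and *Isl1*, which marks starburst amacrine, ON bipolar and ganglion cells, by 0.54 (adjusted p = 0.000183).

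Of the bHLH genes of amacrine genesis, *Neurod4* fell by 0.51 (limma adjusted p = 0.000355) and *Neurod1*, the most abundant of the list and a gene that photoreceptors also use, by 0.23 (adjusted p = 0.0297). *Ebf3* and *Ebf1*, of the early B cell factor family, fell by 0.49 and 0.44 (limma adjusted p = 0.000434 and 0.000594). *Lmo4* fell by 0.43, *Nr4a2*, a nuclear receptor of dopaminergic neurons, by 0.37, and *Nfib*, of late progenitors and glia, by 0.34 (limma adjusted p = 0.000191, 0.0166 and 0.00136). *Lhx9* and *Prdm13*, which takes part in the making of amacrine cells, both fell by 0.27 (limma adjusted p = 0.00529 and 0.0349). *Nfix*, *Nfia*, *Sox2* and *Etv1* did not pass the threshold, with log2 fold changes from -0.14 to 0.11, and *Nfix* passed it without WT c (limma adjusted p = 0.0468). Scaled to rod genes, 15 of the 16 listed genes were called lower, beside 81.9% of all genes. Among these were *Nfix*, *Nfia* and *Sox2*, which turned to -0.16.

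Some of these calls rest on single libraries or on the scaling. *Neurod1* and *Prdm13* were not called with TMM, RLE or upper-quartile factors. *Neurod1* also missed the threshold without WT a, WT b, *Mll1KO* b or *Mll1KO* c (limma adjusted p up to 0.0948), and *Prdm13* when any library other than *Mll1KO* c was left out (adjusted p up to 0.113). *Nr4a2* missed it without WT a (adjusted p = 0.057, in a range from 0.000152 over all alternatives).

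A further AP-2 gene of the table, *Tfap2c*, went the way of *Tfap2a* and *Tfap2b*. Its RPKM was 5.36, 5.03 and 5.39 in WT a, b and c and 4.06, 3.90 and 4.75 in *Mll1KO* a, b and c. The groups did not overlap, with *Mll1KO* c again the highest of its group, and the log2 fold change was -0.26 (limma adjusted p = 0.0226). That call was lost without WT a, WT c, *Mll1KO* a or *Mll1KO* b (limma adjusted p up to 0.0738). Of the AP-2 cofactors and inhibitors *Cited2*, *Kctd1* and *Kctd15*, 0 of 3 were called, by limma or limma-voom, and 0 of 3 had an unadjusted p under 0.05, so that 1 of 4 listed genes of the AP-2 list was lower and its median was -0.01. Scaled to rod genes, 4 of the 4 were called lower, as were 81.9% of all genes. The most abundant, *Cited2*, stood at a mean RPKM of 95.5 in WT and 100.2 in *Mll1KO*. *Tfap2d* and *Tfap2e* were not listed.

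MEIS proteins bind DNA together with PBX proteins, and PKNOX proteins are their relatives. Of 7 listed TALE genes beside *Meis2*, 2 were lower and 0 higher, with a median of -0.05. *Meis1* was at an RPKM of 9.37, 9.40 and 9.40 in WT a, b and c and at 6.30, 6.18 and 6.14 in *Mll1KO* a, b and c. Its libraries agreed closely within each group, and its log2 fold change of -0.53 (SE 0.05, limma adjusted p = 7.26e-05) was larger than the -0.24 of *Meis2*. *Pknox2* fell by 0.51 (limma adjusted p = 0.000626). *Pbx2*, *Pbx3*, *Meis3* and *Pknox1* were not called, although scaling to rod genes called 7 of the 7 lower, beside 81.9% of all genes. *Pbx4* was not listed.

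*Bhlhe22*, *Neurod2* and the other bHLH factors act as dimers, often with E proteins, and Id proteins hold E proteins in dimers that do not bind DNA. Of the 3 E protein genes, *Tcf4* and *Tcf12* were lower (log2 fold change -0.25 and -0.24, limma adjusted p = 0.00343 and 0.0201) and *Tcf3* was not called (-0.14, adjusted p = 0.0652). All 4 Id genes were called higher, *Id2* by 0.51, *Id3* by 0.47, *Id1* by 0.24 and *Id4* by 0.16 (limma adjusted p = 0.00369, 0.00114, 0.00723 and 0.0449). With libraries scaled to rod genes *Id1* and *Id4* turned to -0.04 and -0.12 and were not called, though both stayed above the median of all genes. *Id3*, the most abundant of the list, was at an RPKM of 16.8, 18.4 and 19.9 in WT a, b and c and at 23.7, 27.1 and 26.5 in *Mll1KO* a, b and c. Id genes are known from Müller glia as well as from neurons. *Tcf12* was not called without WT a, WT b or *Mll1KO* c (limma adjusted p up to 0.0709), and *Id4* was not called in 8 of 16 alternatives, among them those without WT b, WT c, *Mll1KO* b or *Mll1KO* c.

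Genes that amacrine cells use for transmission were split, and the direction of some depended on the scaling. Of 5 GABAergic genes, 2 were higher, 1 lower and 2 not called, with a median of 0.16, while scaled to rod genes 2 were lower and 0 higher, beside 81.9% of all genes lower. *Slc32a1*, the vesicular transporter gene of GABA and glycine, was not called (limma adjusted p = 0.0665), but was called higher with TMM, RLE or upper-quartile factors, with limma-voom and without *Mll1KO* b, its adjusted p running from 0.0347 to 0.213 over all alternatives, while scaled to rod genes it turned to -0.13 without a call. The summed RPKM of these genes was 273, 267 and 282 in WT a, b and c and 283, 286 and 318 in *Mll1KO* a, b and c.

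The 2 genes of glutamate decarboxylase, which makes GABA, went in opposite directions. *Gad1* was at an RPKM of 29.9, 29.9 and 32.8 in WT a, b and c and at 36.4, 36.4 and 41.6 in *Mll1KO* a, b and c. *Gad2* was at 10.5, 9.96 and 11.1 in WT a, b and c and at 7.02, 6.43 and 8.13 in *Mll1KO* a, b and c. For both genes the groups were apart, *Gad1* being above and *Gad2* below WT. *Gad1* had a log2 fold change of 0.30 and *Gad2* of -0.49 (limma adjusted p = 0.00684 and 0.00165). *Abat*, which breaks GABA down, was higher by 0.18 (limma adjusted p = 0.0168), a call lost without WT b or *Mll1KO* c (adjusted p up to 0.0734). Scaled to rod genes, *Gad1* was at 0.01 and *Abat* at -0.10, neither called, and both remained above the median of all genes.

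Of 4 glycinergic and AII genes, 2 were higher, 0 lower and 2 not called, with a median of 0.17, while scaled to rod genes 0 were higher and 2 lower, again beside 81.9% of all genes lower. The glycine transporter genes *Slc6a9* and *Slc6a5* each rose by 0.24 (limma adjusted p = 0.00396 and 0.0326). *Slc6a9* was at an RPKM of 30.3, 29.9 and 32.1 in WT a, b and c and at 35.4, 36.4 and 37.7 in *Mll1KO* a, b and c, with no overlap. *Slc6a5* missed the threshold when any library other than *Mll1KO* b was left out (limma adjusted p up to 0.111), and with libraries scaled to rod genes *Slc6a9* and *Slc6a5* turned to -0.05 and -0.01, not called and above the median of all genes. *Gjd2*, the connexin 36 gene through which AII cells couple and the most abundant of the list, had a mean RPKM of 39.8 in WT and 42.9 in *Mll1KO* (limma adjusted p = 0.0816), and was called higher with TMM, RLE or upper-quartile factors and lower with scaling to rod genes. The summed RPKM of the 4 was 81.4, 82.6 and 84.8 in WT a, b and c and 90.9, 90.8 and 95.8 in *Mll1KO* a, b and c.

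Of the 4 starburst genes *Chat*, *Slc18a3*, *Slc5a7* and *Megf10*, 0 were called by limma or limma-voom and 2, *Chat* and *Slc5a7*, had an unadjusted p under 0.05, the log2 fold changes running from -0.11 to 0.22. With TMM, RLE or upper-quartile factors *Chat* and *Slc5a7* were called higher, as they were without WT c (limma adjusted p = 0.024 and 0.0344), and *Chat* without *Mll1KO* b (adjusted p = 0.0378), while scaling to rod genes turned both below 0 (-0.03 and -0.04) without a call and called *Slc18a3* and *Megf10* lower (-0.20 and -0.36), beside 81.9% of all genes. The most abundant, the vesicular acetylcholine transporter gene *Slc18a3*, had a mean RPKM of 9.89 in WT and 10.4 in *Mll1KO*. *Chat*, the gene of the enzyme that makes acetylcholine, was at 4.76, 4.80 and 5.69 in WT a, b and c and at 6.42, 5.54 and 6.30 in *Mll1KO* a, b and c. *Mll1KO* b was below WT c, so the groups overlapped. The summed RPKM of the 4 genes was 23.7, 23.4 and 24.1 in WT a, b and c and 24.9, 24.8 and 25.8 in *Mll1KO* a, b and c.

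Genes of peptides, amines and other subtypes split. Of 14, 10 were listed, and 2 of these were higher, 2 lower and 6 not called, with a median of 0.04, while scaled to rod genes 2 were higher and 5 lower, beside 81.9% of all genes lower. *Penk*, the enkephalin precursor, was at an RPKM of 7.11, 6.56 and 8.17 in WT a, b and c and at 18.7, 20.5 and 22.5 in *Mll1KO* a, b and c. Its libraries were far apart between the groups, at 282.5% of WT and a log2 fold change of 1.38 (SE 0.08, limma adjusted p = 8.87e-06). *Tac1*, the substance P precursor, rose by 0.53 (limma adjusted p = 0.00119). The calretinin gene *Calb2*, which amacrine and ganglion cells share and which was the most abundant here, was at 242, 260 and 263 in WT a, b and c and at 200, 177 and 164 in *Mll1KO* a, b and c, a log2 fold change of -0.50 (limma adjusted p = 0.000831). *Car10* fell by 0.25 (limma adjusted p = 0.00194). The summed RPKM of the 10 was 357, 366 and 370 in WT a, b and c and 320, 280 and 294 in *Mll1KO* a, b and c. *Vip*, *Sst*, *Th* and *Ddc* were not listed.

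**Figure D2:**
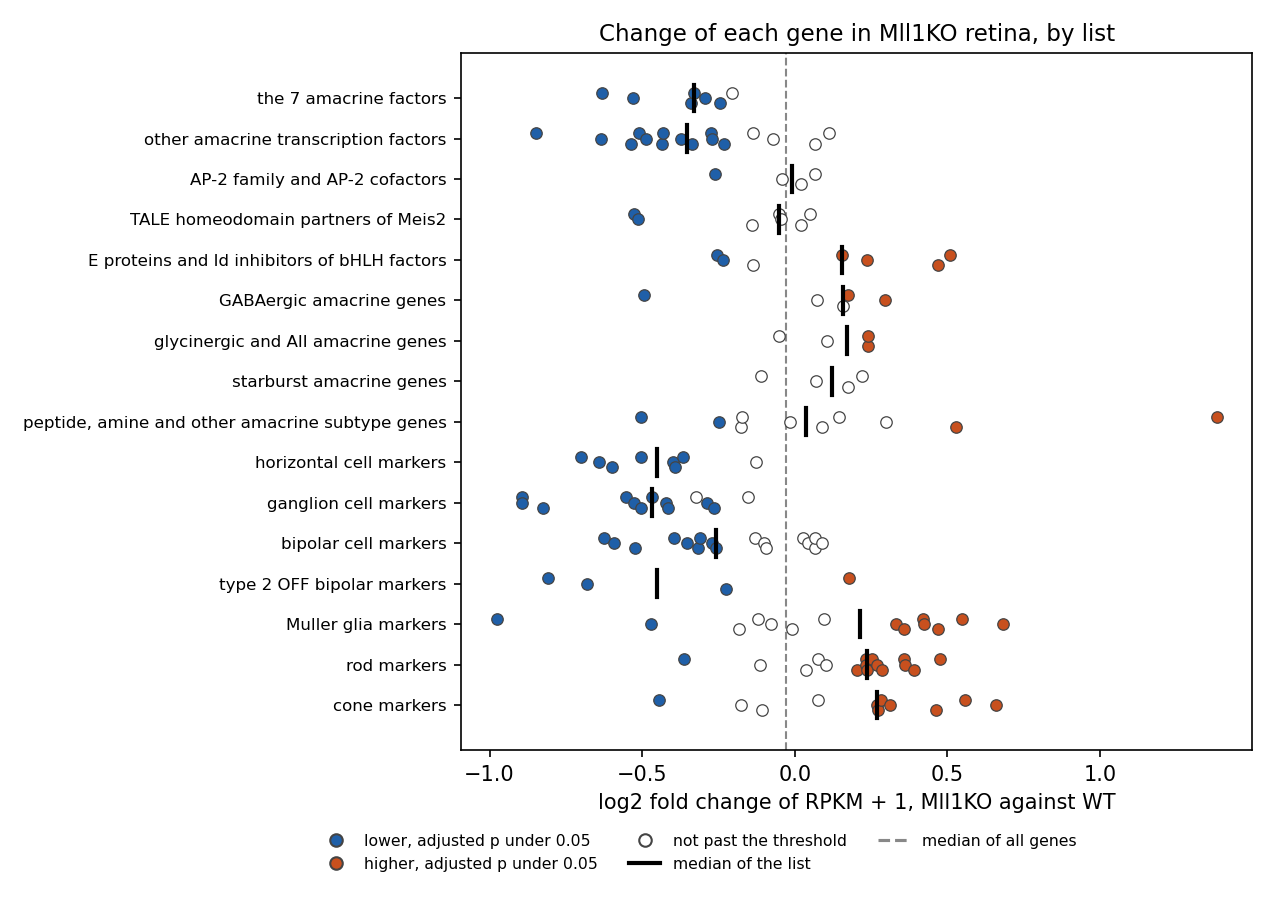
Log2 fold change of RPKM + 1 in *Mll1KO* against WT, 1 point per gene and 1 row per list, over 3 libraries per group. Filled points passed a limma adjusted p of 0.05 over all genes, black bars are list medians, and the dashed line is the median of all genes at -0.03. The bar of the 7 factors stands at -0.33 and that of the other amacrine factors at -0.35, while the bars of the GABAergic and glycinergic genes stand at 0.16 and 0.17.

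Other retinal cells that express some of the 7 factors changed as well, and their markers are given beside the factors. Horizontal cells use *Pax6*, *Tfap2a* and *Tfap2b*. Of 8 listed horizontal cell markers, 7 were lower and 0 higher, with a median of -0.45 and a summed RPKM of 143, 147 and 143 in WT a, b and c and of 98.9, 102 and 106 in *Mll1KO* a, b and c. The most abundant was *Sept4* (log2 fold change -0.40, limma adjusted p = 0.000122), the lowest *Slc4a3* at -0.70 and the highest *Calb1* at -0.13, which was not called. *Lhx1* and *Gja10* were not listed, so their change was not tested here. By qRT-PCR the paper reports less *Gja10*, there named *Cx57*, in *Mll1KO* retinas than in Cre-negative controls.

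Ganglion cells use *Pax6*, *Barhl2* and *Neurod2*. Of 13 listed ganglion cell markers, 11 were lower and 0 higher, with a median of -0.47. Scaled to rod genes 13 were lower, beside 81.9% of all genes. The call of 1 of the 11, *Thy1*, was lost with TMM, RLE or upper-quartile factors and without WT a, WT c, *Mll1KO* b or *Mll1KO* c (limma adjusted p up to 0.116). Their summed RPKM was 653, 615 and 647 in WT a, b and c and 512, 465 and 436 in *Mll1KO* a, b and c. *Sncg*, the most abundant, fell by 0.55 (limma adjusted p = 0.000643), *Rbpms2* was the lowest at -0.89 and *Slc17a6* the highest at -0.15, not called. *Pou4f3* was not listed. The part of the horizontal and ganglion cells in the lower factors was not tested.

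Type 2 OFF bipolar cells use *Bhlhe22*. Of their 4 markers, 3 were lower and 1, *Syt2*, was higher, with a median of -0.45. Their summed RPKM was 23.6, 22.9 and 24.1 in WT a, b and c and 16.4, 16.6 and 17.9 in *Mll1KO* a, b and c. *Vsx1*, the most abundant in WT though not in *Mll1KO*, fell by 0.68 and *Neto1*, the lowest, by 0.81 (limma adjusted p = 0.00011 and 1.43e-05). *Syt2* stood at 0.18 (limma adjusted p = 0.0376), was not called when any library other than *Mll1KO* b was left out (adjusted p up to 0.115), and turned to -0.07 with libraries scaled to rod genes. Of 17 markers of bipolar cells at large, 9 were lower and 0 higher, with a median of -0.26, while scaled to rod genes 17 were lower, beside 81.9% of all genes. The call of 1 of the 9, *Grm6*, was lost with TMM, RLE or upper-quartile factors and without WT a, WT b, *Mll1KO* b or *Mll1KO* c (limma adjusted p up to 0.102). Their summed RPKM was 691, 677 and 667 in WT a, b and c and 582, 580 and 593 in *Mll1KO* a, b and c. *Fezf2* was the lowest at -0.62 and *Bhlhe23* the highest at 0.09. The part of the bipolar cells in the lower *Bhlhe22* was not tested.

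Müller glia and photoreceptors, which make little of these factors apart from *Pax6* in Müller glia, moved the other way on the scale of the library total. Of 14 Müller glia markers, 7 were higher and 2 lower, with a median of 0.21 and a summed RPKM of 1534, 1519 and 1666 in WT a, b and c and of 1921, 2008 and 1975 in *Mll1KO* a, b and c. *Glul* was the most abundant and *Clu* the highest (log2 fold change 0.47 and 0.68), while *Crym* was the lowest at -0.98. Of 16 rod markers, 11 were higher and 1 lower, with a median of 0.24. Their summed RPKM was 19520, 18630 and 19110 in WT a, b and c and 23300, 23790 and 23080 in *Mll1KO* a, b and c. *Pde6a* was the highest at 0.48 and *Nr2e3* the lowest at -0.36. Of 11 cone markers, 7 were higher and 1 lower, with a median of 0.27 and a sum of 366, 380 and 396 in WT a, b and c and of 434, 453.5 and 473 in *Mll1KO* a, b and c. Of these, *Opn1sw* had the highest mean RPKM in WT, though not in *Mll1KO*, and was the lowest at -0.44, and *Arr3* the highest at 0.66. With libraries scaled to rod genes 5 Müller glia markers were higher and 7 lower, and 3 cone markers higher and 4 lower, beside 81.9% of all genes lower. A larger share of reads from these cells lowers the RPKM of every other gene, and its part in the lower factors was not tested.

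Of the cells that the progenitors do not make, microglia had 1 of 6 listed markers higher and 0 lower, with a median of 0.05. Endothelial cells had 3 of 8 lower and 1 higher, with a median of -0.20, from *Kdr*, the most abundant, at -0.73 to *Flt1* at 0.32. Of 3 listed astrocyte markers 2 were higher, with *Gfap*, the most abundant, at 0.97 and *Pdgfra*, the lowest, at 0.16. Which cells made the RNA of these markers cannot be told in whole retina, so a change in the astrocytes themselves was not tested. In microglia *Ctss* was the most abundant and *C1qb* the lowest at -0.12, not called but passing without *Mll1KO* c (limma adjusted p = 0.0495) and with scaling to rod genes (adjusted p = 0.000831). Their summed RPKM was 35.2, 34.9 and 33.2 in WT a, b and c and 33.4, 37.9 and 36.7 in *Mll1KO* a, b and c for microglia. For endothelial cells it was 94.9, 93.6 and 91.9 in WT and 75.8, 68.0 and 70.4 in *Mll1KO*, and for astrocytes 9.87, 10.6 and 10.3 in WT and 17.4, 16.4 and 17.0 in *Mll1KO*. *Aif1*, *C1qa*, *P2ry12*, *Tmem119* and *Pax2* were not listed.

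Some markers of tissue next to the retina varied between libraries of the same group. Of 6 pigment epithelium markers 2 were listed, *Ttr* and *Pmel*, and their sum was 132, 81.0 and 201 in WT a, b and c and 64.2, 128 and 64.9 in *Mll1KO* a, b and c. *Ttr* was the more abundant, with a log2 fold change of -0.28, and *Pmel* was at -1.48, neither called by limma or limma-voom, although *Pmel* had an unadjusted p of 0.0384. Without *Mll1KO* b both were called lower (limma adjusted p = 0.0313 and 0.0451), as was *Pmel* without WT b (adjusted p = 0.0123), and scaling to rod genes called both lower (adjusted p = 0.0117 and 0.0108). *Cryaa*, the 1 lens gene of 5 that was listed, was at 6.54, 6.61 and 7.51 in WT a, b and c and at 32.1, 12.4 and 7.28 in *Mll1KO* a, b and c, with a log2 fold change of 0.97 that was called without *Mll1KO* c (limma adjusted p = 0.0146) and not without any other library. *Rpe65*, *Best1*, *Lrat*, *Tyr*, *Cryba1*, *Crygs*, *Lim2* and *Mip* were not listed. Among the *Mll1KO* libraries, b had the highest pigment epithelium sum and the lowest sum over the 7 factors (116), and c the lowest *Cryaa* and the highest sum over the 7 factors (133). Among the WT libraries, c had the highest pigment epithelium sum and the lowest sum over the 7 factors (154). WT b had the lowest pigment epithelium sum and a sum over the 7 factors of 155. Whether such tissue was carried along, and its part in the result, was not tested.

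Over the 6 libraries, the profile of each factor was set against the genes of these lists. The Pearson correlations of log2(RPKM + 1) describe 6 points that fall into 2 groups, so any gene lower in *Mll1KO* by a like amount scores high, and no p is given. *Pax6* was most like *Pknox2* and *Barhl2* (r = 0.992 and 0.991), and *Barhl2* most like *Pknox2* and *Pax6* (r = 0.995 and 0.991). *Tfap2a* was like the bipolar gene *Irx5* (r = 0.989), and *Meis2* most like *Tfap2a* (r = 0.986). *Tfap2b* was most like *Tfap2c* and *Tacr3* (r = 0.964 and 0.963). *Bhlhe22* was most like *Tcf4* and *Six3* (r = 0.982 and 0.979), and *Neurod2* most like *Nos1* and *Nr4a2* (r = 0.934 and 0.933). *Irx5* and *Tacr3* were lower in *Mll1KO* (log2 fold change -0.39 and -0.22), though *Tacr3* was not called with TMM, RLE or upper-quartile factors or without WT a, WT c, *Mll1KO* a or *Mll1KO* b (limma adjusted p up to 0.122), and *Nos1* was not called at -0.18, but was without *Mll1KO* c (limma adjusted p = 0.0439) and with scaling to rod genes (adjusted p = 0.00185).

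The 250 bases before transcription starts were searched for 4 motifs on both strands, in promoters from RefSeq (GRCm38.p6). The promoters searched were 8, of *Neurod2* and of 5 of the 6 called factors, without *Bhlhe22*. The E-box CANNTG, bound by bHLH proteins, was found in 4 of the 8, beside 66.2% of 32817 promoters of the same length. The letters GCCNNNGGC, bound by AP-2 proteins, were in 1 of the 8 (13.7% of all), TGACAG, bound by MEIS proteins, in 2 (15.9%), and TAAT, the core of many homeodomain sites, in 7 (54.9%). CpG dinucleotides were more frequent than the median of 6 per promoter in 7 of the 8, with 36 in *Barhl2*. A match is a string of letters and no evidence of binding.

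The promoter of *Barhl2*, which fell by 33.7%, and that of *Neurod2*, which was not called, are shown with every E-box in capitals, since both carry more than 1. The promoter of *Barhl2* lies at chr5:106458167-106458416 and that of *Neurod2* at chr11:98329646-98329895, both on the minus strand and written 5′ to 3′. In *Neurod2* the E-box farthest from the start overlaps a TGACAG match.
*Barhl2*: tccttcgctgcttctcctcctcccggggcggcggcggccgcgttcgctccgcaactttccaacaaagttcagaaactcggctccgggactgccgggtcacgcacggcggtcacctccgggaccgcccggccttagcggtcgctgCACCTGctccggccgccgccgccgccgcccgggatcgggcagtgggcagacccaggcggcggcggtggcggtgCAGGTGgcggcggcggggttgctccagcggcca
*Neurod2*: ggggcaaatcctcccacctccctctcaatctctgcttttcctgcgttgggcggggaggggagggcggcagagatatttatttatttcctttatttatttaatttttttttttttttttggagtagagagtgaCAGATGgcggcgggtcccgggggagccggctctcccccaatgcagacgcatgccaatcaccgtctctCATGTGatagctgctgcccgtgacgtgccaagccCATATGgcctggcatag

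The upstream promoter of *Pax6*, at chr2:105668646-105668895 on the plus strand, held the 1 match to the AP-2 letters among the 8 promoters, which is shown in capitals.
*Pax6*: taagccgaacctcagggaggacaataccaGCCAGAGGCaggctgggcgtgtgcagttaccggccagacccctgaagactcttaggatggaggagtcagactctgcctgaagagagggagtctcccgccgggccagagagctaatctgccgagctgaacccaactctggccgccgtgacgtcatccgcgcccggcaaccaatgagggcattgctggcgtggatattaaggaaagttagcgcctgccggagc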

How the data were processed

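The authors aligned single-end reads to mm10 per the labels (GRCh38.76 in the methods) with STAR 2.0.4b, counted them with featureCounts 1.45 and set aside genes with few reads. The RPKM values deposited by the authors are these counts over gene length and library total (edgeR 3.17.9 per the labels, while the methods give another version for the comparison). The authors' mean CPM, on the log2 scale, served to choose gene lengths when reads were recovered, which were whole within 0.01 reads for every gene. The log2 fold change, p-value and FDR columns of the authors' edgeR comparison were not used. Of 11404 lines, 11339 genes remained after repeated gene IDs were dropped, and 18 symbols turned into dates were restored. In the filter of the authors, more samples than either group holds had to pass a minimum CPM. The fewest reads of a listed gene were 120, 100 and 97 in WT a, b and c. In *Mll1KO* a, b and c they were 117, 100 and 90. A gene below that minimum in all *Mll1KO* libraries could not be listed. The counts and medians of the lists therefore leave out such losses.

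Groups were compared with limma 3.58.1 (R 4.3.3) on log2(RPKM + 1) with a variance trend, which understates the change of low genes, and Benjamini-Hochberg adjustment at 0.05. The procedure was tested on simulated data, and the outcome of that test is not given here. Coordinates come from GENCODE vM21 (GRCm38). The 7 factors and the 20 lists were chosen with earlier results of these data known. Genes were named if they were *Kmt2a*, one of the 7 factors, called or most abundant in an amacrine list, most abundant, lowest or highest in a list of another cell type, or most like a factor, and the other named genes were chosen after their values were seen. Some genes that meet this rule are not reported here. Alternatives were TMM, RLE, upper-quartile and rod-gene scaling, pseudocounts of 0.1 and 5, a mean RPKM of at least 1, limma-voom on recovered reads, no trend, the replicate letter as a block, and each library left out.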

Additional observations from a re-analysis of the deposited data

How the results depend on the processing

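The 6 called factors kept their direction and stayed under an adjusted p of 0.05 in all 16 alternatives, and *Neurod2* passed only with rod-gene scaling and without *Mll1KO* c. Scaling libraries by the sum of their rod genes moved the genes called from 2643 to 9532, with 242 higher and 9290 lower in place of 999 and 1644, and the median of all genes to -0.29. On the lists beside the 7 factors it moved the genes called lower from 57 to 108 and those called higher from 40 to 14. Of 97 called genes on these lists, 15 changed sign under it. With 1 library left out, the genes called ranged from 1704 to 2536 and those called lower from 1030 to 1559, as fewer libraries were tested, with the fewest without WT b (1704) and without *Mll1KO* c (1757), and 20 of the 97 list genes lost their call without at least 1 library. With the replicate letter as a block, 2242 genes and 6 of the 7 factors were called, *Slc32a1* passed the threshold, and *Prdm13*, *Id4*, *Slc6a5*, *Tacr3* and *Syt2* lost their calls. The deviations of same-letter libraries from their group means correlated at -0.04, -0.19 and -0.007 for a, b and c. Those of libraries with different letters correlated at -0.09 to 0.13. With 3 libraries per group these values cannot exclude a batch shared by letter. Library a had the most reads and c the fewest in both groups. The difference in the log2 ratio of *Bhlhe22* to *Neurod2* ran from -0.46 to -0.36 over both other pseudocounts and each library left out. Over the log2 fold changes of the 7 factors and *Kmt2a* and the counts of the 8 lists of amacrine genes and partners, 353 values stayed on their side of the threshold or within 1.5 times the count, 29 list counts moved, and *Neurod2* passed the threshold in the 2 alternatives named. Depth limits *Barhl2* and *Neurod2* most, at 276 and 345 reads in *Mll1KO* b.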
